A study of Homo sapiens with 65 samples.

Results

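The genes described here encode proteins that bind hyaluronan: the large matrix proteoglycans VCAN (versican), ACAN (aggrecan), NCAN (neurocan) and BCAN (brevican), the link proteins HAPLN1 and HAPLN3, and the cell surface proteins CD44, LYVE1 and STAB1. They were chosen by name, and their counts were taken from the deposited table through their Ensembl identifiers, all 9 of which were found among the 58735 gene identifiers of the table. Hyaluronan is a long unbranched sugar chain that is made at the cell membrane and extruded into the matrix. Versican and the other large proteoglycans attach to it through a link-protein domain, a link protein locks each such complex in place, and receptors such as CD44 tie the chain to the cell surface. In the embryonic heart, hyaluronan and versican fill the cardiac jelly, the matrix between myocardium and endocardium, in which valve cushions form.

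They were read in 65 RNA-seq libraries. Each was made from left-ventricular cardioids, heart-like aggregates grown from the human induced pluripotent stem cell line WTC-11, and pooled 8 cardioids. The genotype arm (41 libraries) set WT cardioids beside cardioids of clones labelled HAS2-KO, which are meant to lack hyaluronan synthase 2, at day 1.5 (5 WT and 6 KO libraries), day 2.5 (6 and 6), day 4.5 (6 and 6) and day 7.5 (3 and 3). The enzyme arm (24 libraries, 3 in each group) set untreated cardioids beside cardioids given hyaluronidase, an enzyme that cuts hyaluronan, starting at day 1.5 (HAse1.5) or at day 2.5 (HAse2.5). Untreated and HAse1.5 cardioids were collected at days 2.5, 4.5 and 7.5, and HAse2.5 cardioids at days 4.5 and 7.5. All 8 enzyme groups carry the genotype label WT, and the replicates of each are the lines TNNI1, WT and TNNT2. The KO libraries came from the clones cl4 (R1 to R3), cl14, cl46 and cl51, and the WT libraries from WT (R1, R2), WT_TU (R1, R2), cl43_WT_UT and TNT2. At day 7.5 WT was WT_R1, WT_R2 and WT_TU_R2, and KO was cl4_R2, cl4_R3 and cl14_R1, that is 2 clones. No label says whether repeats of a line were separate differentiations, so a p-value measures the spread between these libraries.

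Library totals ran from 831062 to 3574843 counts with a median of 1570954, and levels are given as CPM, counts scaled to the library's total. The library numbers of the genotype arm fall into 3 blocks: block A holds WT_R1, WT_TU_R1 and cl4_R1, block B the R2 libraries of those lines, and block C the rest. No label says what the numbers stand for, but several members stood apart in block A, and their values without it are given where they matter. HAS2 reads did not differ by genotype past the threshold at any day (log2 fold change -0.26, -0.23, -0.01 and 0.18 at days 1.5, 2.5, 4.5 and 7.5, with edgeR adjusted p of 0.937, 0.77, 0.992 and 1), and reads at the end of a transcript do not check an edit upstream of it. All samples are labelled cardiac progenitor. The summed level of 6 mesoderm markers was 2917 to 3951 CPM in WT at day 1.5 and 54.6 to 130 CPM at day 2.5, and that of 8 cardiomyocyte markers was 132 to 449 CPM at day 2.5 and 30016 to 33129 CPM at day 7.5. Of 7 macrophage markers, PTPRC, CD68, CSF1R and CD163 stayed at 3 counts or fewer in every library, while TYROBP reached 58, MRC1 30 and AIF1 22 counts. Of 7 neural markers, PAX6, SOX1 and OLIG2 stayed at 3 counts or fewer, while DCX reached 103 and MAP2 40 counts. These are bulk libraries of whole cardioids, so fewer cells of a type and less RNA per cell cannot be told apart.

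The 9 genes differed widely in read number. The kit takes reads from the end of each transcript, so a gene's length does not enter its count. VCAN had 187090 reads over the 65 libraries and HAPLN1 had 33466, while HAPLN3 had 1210, NCAN 806, CD44 769 and ACAN 346. BCAN had 75 reads, never more than 7 in a library, and STAB1, a scavenger receptor that carries a link domain, had 21 reads with at most 5 in a library. LYVE1, the hyaluronan receptor of lymphatic endothelium, had no read in any of the 65 libraries, and 0 of 113779012 counts allows a level of up to 0.0264 CPM, counting error only. LYVE1 overlaps the protein-coding gene MRVI1 on the same strand, which had up to 42 counts in a library. How reads in such an overlap were counted is not given, so this limit covers only reads assigned to LYVE1. A gene was taken as at the floor of a group where each library held 3 counts or fewer, which corresponds to 0.839 to 3.61 CPM depending on depth. VCAN, HAPLN1 and HAPLN3 were above it in all 16 groups. CD44 was at the floor in 6 of 16 groups, ACAN in 3, NCAN in 7, BCAN in 10, STAB1 in 15 and LYVE1 in 16. The filter on low counts left VCAN, HAPLN1, HAPLN3, CD44, ACAN and NCAN among the 13797 genes tested in the genotype arm, and the same genes except CD44 among the 12748 tested in the enzyme arm. BCAN, STAB1 and LYVE1 passed in neither arm and have no test.

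Proteoglycan genes and link protein genes lie side by side in the human genome, and the members form such neighbours. On GRCh38, VCAN (ENSG00000038427) lies on chromosome 5 from 83471465 to 83582303 on the plus strand, and HAPLN1 (ENSG00000145681) from 83637805 to 83721613 on the minus strand, tail to tail with 55501 bases between them. ACAN (ENSG00000157766) lies on chromosome 15 from 88803442 to 88875354 on the plus strand, and HAPLN3 (ENSG00000140511) from 88877288 to 88895626 on the minus strand, with 1933 bases between their ends. No other protein-coding gene lies in either gap. NCAN (ENSG00000130287; chromosome 19, 19211973 to 19252233) is likewise tail to tail with HAPLN4. BCAN (ENSG00000132692; chromosome 1, 156641390 to 156659532) lies next to HAPLN2 on the same strand, with HAPLN2 upstream. CD44 (ENSG00000026508) lies on chromosome 11 from 35138870 to 35232402, LYVE1 (ENSG00000133800) on chromosome 11 from 10556966 to 10611689 and STAB1 (ENSG00000010327) on chromosome 3 from 52495338 to 52524495. STAB1 overlaps NT5DC2 on the other strand, a gene with up to 740 counts in a library, and no source used here gives the strand setting of the counting, so even the few STAB1 reads are uncertain. The antisense genes VCAN-AS1 and CD44-AS1 had 0 counts in all libraries.

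The promoters of the ACAN and HAPLN3 pair are shown because ACAN was the only member to pass the test between KO and WT at a single day, while its neighbour did not. The sequences come from RefSeq (GRCh38.p14), run 5′ to 3′ on the gene's own strand, and are in lower case with GC boxes (GGGCGG on either strand, hence CCGCCC as well) in capitals. They are chr15:88803186-88803435 on the plus strand for ACAN and chr15:88895627-88895794 on the minus strand for HAPLN3. The ACAN window of 250 bases held no annotated exon base, and that of HAPLN3 was cut to the 168 bases upstream of annotated exons. The windows of VCAN, HAPLN1 and CD44 lay wholly in annotated exons, so none is shown for these members.

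ACAN: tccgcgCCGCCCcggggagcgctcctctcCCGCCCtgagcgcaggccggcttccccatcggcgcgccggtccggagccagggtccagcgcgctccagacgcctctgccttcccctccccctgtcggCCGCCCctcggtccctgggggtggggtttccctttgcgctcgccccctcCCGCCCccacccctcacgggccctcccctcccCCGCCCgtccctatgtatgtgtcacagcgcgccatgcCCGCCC

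HAPLN3: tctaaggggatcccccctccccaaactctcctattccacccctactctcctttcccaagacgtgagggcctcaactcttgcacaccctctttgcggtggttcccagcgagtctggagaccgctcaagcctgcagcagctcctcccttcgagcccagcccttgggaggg

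The 250 bases of ACAN held 77.2% G and C and 6 GC boxes, against a median of 58.0% over 35116 promoters of that length, of which 42.6% held at least 1 GC box. The 168 bases of HAPLN3 held 61.3% G and C and no GC box, against a median of 56.5% and a share with a GC box of 29.1% at that length. Each held 1 match to CTTTG, the core bound by TCF and LEF factors, on either strand, as did 42.1% of promoters at the longer and 32.2% at the shorter length. Neither held GATA (45.6% and 36.9% of promoters at the 2 lengths), the E-box CANNTG (61.8% and 48.8%), TATAAA (10.7% and 6.80%) or GGAATG (11.9% and 8.25%). Such matches describe the letters of these windows and say nothing of whether a factor binds there.

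VCAN, the proteoglycan of the cardiac jelly, rose in WT from day 2.5 to day 4.5 and was the member with the most reads at every day. At day 1.5 it had 122 CPM in WT_R1, 141 in WT_TU_R1, 477 in WT_R2, 432 in cl43_WT_UT and 486 in TNT2 (332 ± 184, SD, n = 5). At day 2.5 the lowest, median and highest of 6 WT libraries were 277, 678 and 735 CPM, and at day 4.5 they were 918, 2093 and 2898 CPM. The 3 WT libraries of day 7.5 held 2766, 3707 and 4743 CPM. The block A libraries were the lowest WT libraries on every day. The rise from day 2.5 to day 4.5 passed the test with no overlap between days, as for 17.7% of all genes (log2 fold change 1.79 ± 0.29, SE, edgeR adjusted p = 4.43e-06). The steps before it (0.60 ± 0.30, edgeR adjusted p = 0.134) and after it (1.01 ± 0.34, edgeR adjusted p = 0.111) were higher in 5 of 5 and 3 of 3 libraries of the same name but did not pass. With the library name as a block both passed (log2 fold change 0.57 and 1.07, edgeR adjusted p = 0.0146 and 0.00189), and so did both without block A (0.46 and 0.91, edgeR adjusted p = 0.00358 and 1.3e-05).

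The untreated cardioids of the enzyme arm had VCAN levels that overlapped those of WT at each day, with a library above the WT maximum at days 2.5 and 7.5. They held 555, 650 and 994 CPM at day 2.5 in the lines TNNI1, WT and TNNT2, 2448, 2109 and 2354 CPM at day 4.5, and 5759, 4633 and 3340 CPM at day 7.5. VCAN rose from day 2.5 to 4.5 (1.52 ± 0.27, edgeR adjusted p = 0.000231) and from day 4.5 to 7.5 (1.11 ± 0.27, edgeR adjusted p = 0.0152), in 3 of 3 lines each time. The later call was lost when any of 3 of the 6 libraries was left out, with an edgeR adjusted p of up to 0.0916.

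HAPLN1, the link protein that stabilises versican on hyaluronan, took a different course: its mean was highest at day 4.5, and it fell by day 7.5. In WT it had 52.0 to 87.3 CPM at day 1.5 (66.7 ± 13.0, n = 5), 101 to 303 CPM at day 2.5 (211 ± 91.8, n = 6), 161 to 649 CPM at day 4.5 (336 ± 172, n = 6), and 30.8, 57.9 and 105 CPM at day 7.5. Levels of days 1.5 and 2.5 did not overlap (as for 16.2% of all genes), and neither did those of days 4.5 and 7.5 (8.89%), whereas days 2.5 and 4.5 overlapped. From day 1.5 to 2.5 HAPLN1 rose (log2 fold change 1.47 ± 0.33, edgeR adjusted p = 0.000574), and from day 4.5 to 7.5 it fell (-2.35 ± 0.42, edgeR adjusted p = 0.000546). In between it was 0.70 ± 0.30 higher, which did not pass (edgeR adjusted p = 0.0694). The untreated lines gave 176, 130 and 181 CPM at day 2.5, then 427, 504 and 636 CPM at day 4.5, and had dropped to 75.0, 70.2 and 76.4 CPM by day 7.5. Both of these steps passed (1.55 ± 0.24 and -2.70 ± 0.25, edgeR adjusted p = 4.33e-05 and 3.67e-07). Neither overlapped, which held for 42.6% and 27.7% of all genes in these steps.

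**Figure D1:**
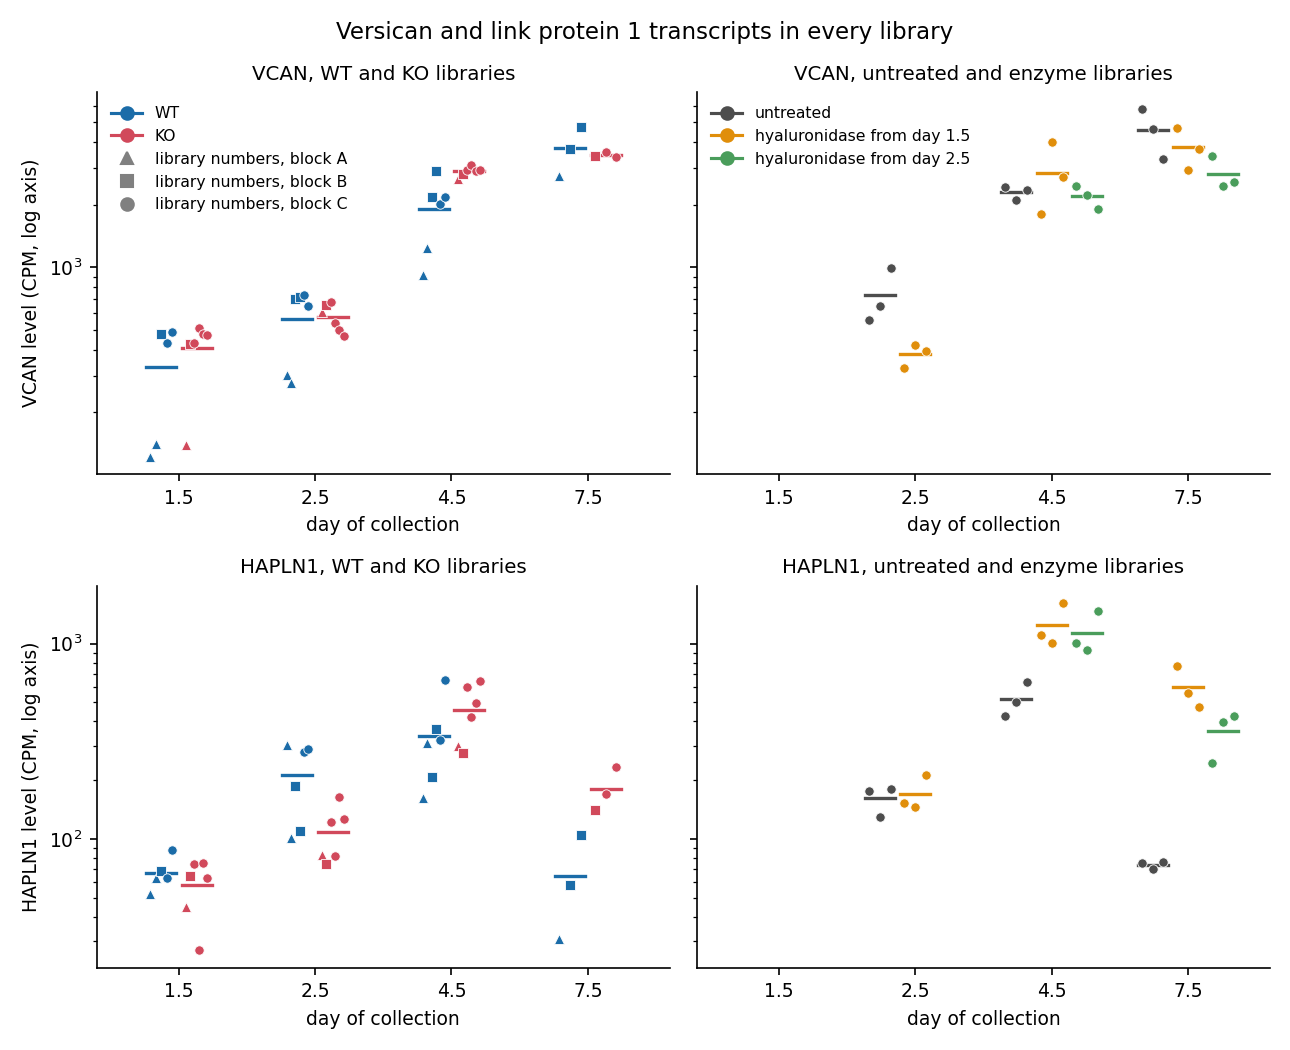
VCAN (top) and HAPLN1 (bottom) in every library, as CPM on a log scale, by day and group; points are libraries, shaped by block of library numbers in the genotype arm, and lines are group means. VCAN climbs from 122 to 486 CPM in WT at day 1.5 to 2766 to 4743 CPM at day 7.5, and HAPLN1 at day 7.5 lies at 30.8 to 105 CPM in WT and 70.2 to 76.4 CPM in untreated cardioids but at 246 to 766 CPM after hyaluronidase.

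The other 4 tested members were scarce, and each had its own course. CD44, the main hyaluronan receptor of many cells, was a gene of the earliest day: WT libraries held 15.1, 27.1, 27.2, 27.2 and 27.9 CPM at day 1.5, and 0.308 to 4.42 CPM (median 0.953) at day 2.5. The days did not overlap, as for the 16.2% of genes above, and CD44 fell by 4.27 ± 0.51 on the log2 scale (edgeR adjusted p = 1.47e-08). By day 4.5 no WT library was above 1.30 CPM.

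NCAN, a proteoglycan best known from brain matrix, was also an early gene, with 8.79 to 30.2 CPM (median 16.7) in WT at day 1.5, 4.42 to 22.0 CPM at day 2.5 and 0 to 1.95 CPM at day 4.5. The fall from day 2.5 to 4.5 passed without overlap, as for the 17.7% of genes above (-3.15 ± 0.59, edgeR adjusted p = 3.7e-05), and it was lower in 6 of 6 libraries of the same name. In untreated cardioids it went from 9.70, 9.84 and 2.80 CPM at day 2.5 to 2.05, 0 and 0 CPM at day 4.5, which did not pass (-3.29 ± 1.19, edgeR adjusted p = 0.0512). The fall passed with the line as a block (edgeR adjusted p = 0.0458) and with no filter on low counts (edgeR adjusted p = 0.0322). It also passed when the TNNI1 library of day 4.5 was left out (edgeR adjusted p = 0.0334).

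HAPLN3, a link protein with wide tissue expression, was highest at day 2.5. WT libraries held 0.517 to 5.72 CPM at day 1.5, 12.2 to 30.8 CPM at day 2.5, 3.76 to 15.6 CPM at day 4.5, and 1.03, 2.09 and 3.23 CPM at day 7.5, so that only days 2.5 and 4.5 overlapped among neighbouring days. Days 1.5 and 2.5 did not overlap for 16.2% of all genes, and days 4.5 and 7.5 for 8.89%. HAPLN3 rose to day 2.5 (2.07 ± 0.42, edgeR adjusted p = 0.000199) and fell from day 4.5 to 7.5 (-2.26 ± 0.60, edgeR adjusted p = 0.0277). The step between was -0.85 ± 0.37 (edgeR adjusted p = 0.0755), and it passed with the library name as a block (-0.89, edgeR adjusted p = 0.0192). The 2 block A libraries of day 2.5 were its highest (30.8 and 30.5 CPM), and without block A the later fall did not pass (-1.43, edgeR adjusted p = 0.203). It was also lost in a fit of the compared libraries alone (edgeR adjusted p = 0.142) and when WT_R1 of day 4.5 or any of the 3 libraries of day 7.5 was left out (edgeR adjusted p up to 0.19). In untreated cardioids HAPLN3 went from 21.4, 19.7 and 23.0 CPM at day 2.5 to 8.19, 4.44 and 5.56 CPM at day 4.5 (-1.91 ± 0.64, edgeR adjusted p = 0.032), a call that was lost when any of the 6 libraries was left out (edgeR adjusted p = 0.0513 to 0.106).

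ACAN, the proteoglycan of cartilage, was at 0 to 2.58 CPM in WT at day 1.5, 2.16 to 7.85 CPM at day 2.5 and 2.88 to 16.3 CPM at day 4.5. The rise from day 1.5 to 2.5 passed (1.89 ± 0.69, edgeR adjusted p = 0.0349) with overlapping days, in 4 of 5 libraries of the same name. The highest ACAN count in WT at day 1.5 was 5, under the filter's minimum count. In the genotype arm ACAN passed the filter only through later WT libraries, where it was high, so this call is not independent of the filter. The call was lost under 8 of 17 alternatives: without block A (1.74, edgeR adjusted p = 0.0973), with no filter on low counts (edgeR adjusted p = 0.0628) and when WT_TU_R1, WT_R2 or cl43_WT_UT of day 1.5 or WT_R1, WT_R2 or cl43_WT_UT of day 2.5 was left out (edgeR adjusted p up to 0.0999). In untreated cardioids ACAN had 3.57, 16.1 and 19.6 CPM at day 2.5, 2.05, 7.99 and 2.09 CPM at day 4.5, and 3.57, 4.47 and 3.71 CPM at day 7.5. These levels rest on few reads, the highest ACAN count in any library being 35.

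**Figure D2:**
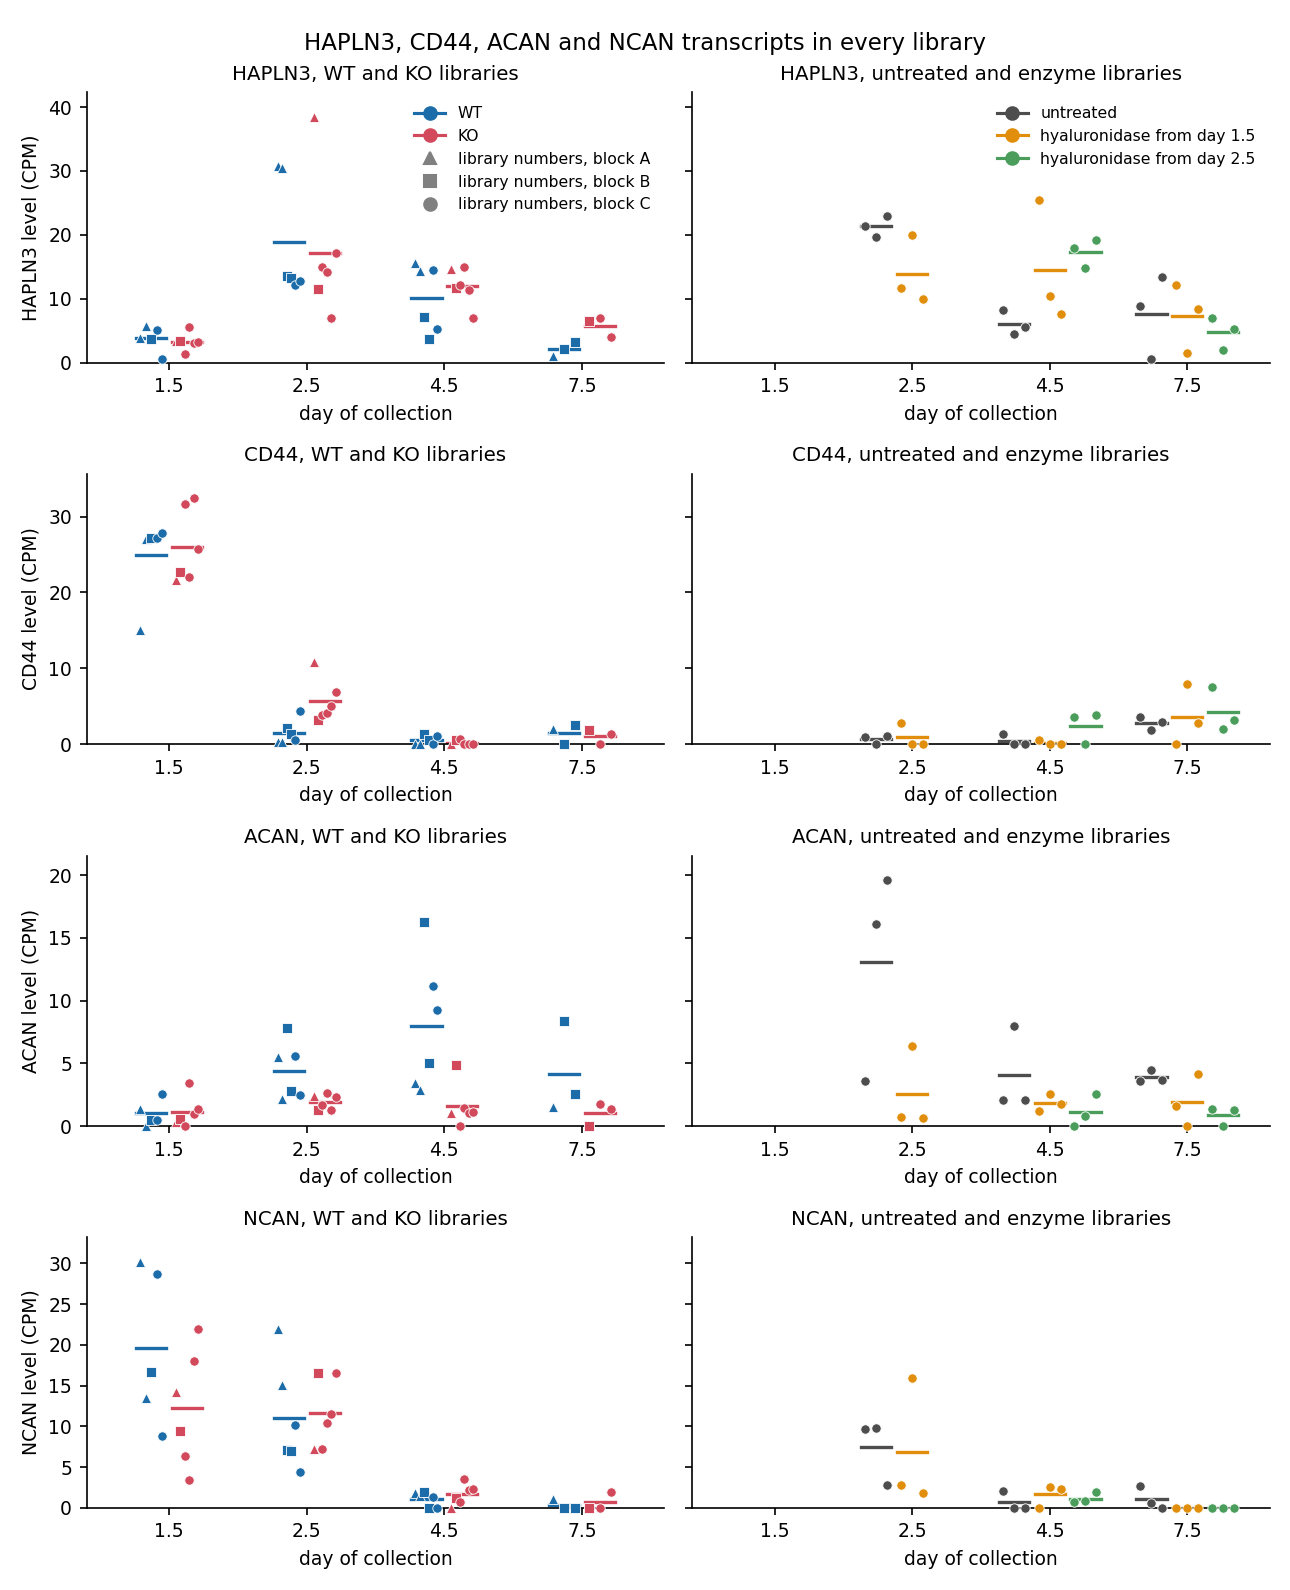
HAPLN3, CD44, ACAN and NCAN in every library, as CPM on a linear scale that starts at 0, by day and group; points are libraries, shaped by block of library numbers in the genotype arm, and lines are group means. CD44 and NCAN are highest at day 1.5 (15.1 to 27.9 and 8.79 to 30.2 CPM in WT), HAPLN3 is highest at day 2.5, and at day 4.5 ACAN is at 2.88 to 16.3 CPM in WT and 0 to 4.89 CPM in KO.

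Counted together, 4 of the 6 tested members changed in WT from day 1.5 to 2.5 (HAPLN1, HAPLN3 and ACAN up, CD44 down), when 30.1% of all genes tested were called. From day 2.5 to 4.5, 2 of 6 changed (VCAN up, NCAN down) against 34.5% of all genes, and from day 4.5 to 7.5, 2 of 6 changed (HAPLN1 and HAPLN3 down) against 2.70%. In WT, CD44, NCAN and ACAN reached the filter's minimum count only on the days where they were high. Their calls are thus not independent of the filter. The median log2 fold change of the 6 tested members in these steps was 1.03, -0.08 and -1.15, and that of all genes 0.01, 0.03 and -0.05. In untreated cardioids 3 of 5 members changed from day 2.5 to 4.5 (VCAN and HAPLN1 up, HAPLN3 down), against 23.0% of all genes, and 2 of 5 from day 4.5 to 7.5 (VCAN up, HAPLN1 down), against 6.39%. The medians were -1.85 and, over the 4 members with a fold, 0.27, beside 0.02 and 0.00 over all genes. Called members moved in both directions at every step except from day 4.5 to 7.5 in WT. There the link proteins fell, and VCAN was higher without passing, except in the fits with the library name as a block and without block A given above.

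Other genes of hyaluronan biology were taken from 5 lists, whose counts stand beside the shares of all genes called in WT, 30.1% from day 1.5 to 2.5, 34.5% from day 2.5 to 4.5 and 2.70% from day 4.5 to 7.5. The 3 of 9 proteases and the 3 and 4 of 16 chondroitin sulfate genes below are near or under those shares. Of the enzymes that make and break hyaluronan, HAS2 rose from day 1.5 to 2.5 in WT (1.56 ± 0.29, edgeR adjusted p = 6.24e-05), 1 of 2 called among 5 tested. From day 2.5 to 4.5, 4 of those 5 were called, UGP2 and CEMIP2 up and UGDH and HAS2 down. UGP2 and UGDH make the sugar nucleotide used by the synthases, and CEMIP2 is a cell surface protein reported to degrade hyaluronan. Among proteases that include the versican-cleaving ADAMTS enzymes, 3 of 9 rose in that step: ADAMTS9 (1.32 ± 0.26, edgeR adjusted p = 7.66e-05), ADAMTS1 (0.98 ± 0.31, edgeR adjusted p = 0.0106) and ADAMTS15 (0.89 ± 0.32, edgeR adjusted p = 0.0286). ADAMTS1 and ADAMTS9 also rose in untreated cardioids over the same days (1.42 ± 0.30 and 1.18 ± 0.27, edgeR adjusted p = 0.00126 and 0.00224).

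Among other hyaluronan-binding proteins, 4 of 6 tested changed in WT from day 2.5 to 4.5. HMMR, a receptor best known from dividing cells, fell (-1.98 ± 0.45, edgeR adjusted p = 0.000528), as did C1QBP and ITIH5, a heavy chain of inter-alpha-trypsin inhibitor (-4.38 ± 0.74, edgeR adjusted p = 9.17e-06), while SUSD5 rose. The members' matrix and cytoskeletal partners gave 5 called of 8 in that step, EZR and TNC up and FBLN1, MSN and SPP1 down. From day 4.5 to 7.5, FBLN1, which encodes a fibulin (-2.29 ± 0.31, edgeR adjusted p = 6.38e-06), and TNC, which encodes tenascin-C (-1.88 ± 0.43, edgeR adjusted p = 0.00757), fell. Of 16 tested genes for the chondroitin sulfate chains that versican and aggrecan carry, 3 were called from day 1.5 to 2.5, all lower, and 4 from day 2.5 to 4.5, of which UST was lower and 3, XYLT2 and CHST12 among them, were higher.

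The next question was whether the members differed where the main embryonic hyaluronan synthase was targeted. At day 1.5 none of the 6 tested members was called between KO and WT, and 0.00% of all genes were called; edgeR gave 0 members at an unadjusted p under 0.05, and DESeq2 called 0. VCAN held 139 CPM in cl4_R1 and 428 to 512 CPM in the other 5 KO libraries. The 95% interval of its log2 fold change ran from -0.30 to 0.91, that of HAPLN1 from -0.89 to 0.42, that of CD44 from -0.79 to 0.86 and that of NCAN from -1.66 to 0.26.

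At day 2.5 no member was called either, among 0.993% of genes called, with 2 members at an unadjusted p under 0.05 and 1, CD44, called by DESeq2. HAPLN1 had 83.0, 74.5, 122, 82.0, 163 and 126 CPM in the 6 KO libraries and 101 to 303 CPM in WT, so that 3 of 6 KO libraries lay below all WT libraries. Its log2 fold change was -1.01 ± 0.31 (95% interval -1.62 to -0.39, edgeR adjusted p = 0.112). With the block of library numbers as a term it passed (-1.21, edgeR adjusted p = 0.00726), and without block A it did not (-0.96, edgeR adjusted p = 0.189). CD44 had 3.18 to 10.8 CPM (median 4.64) in KO against 0.308 to 4.42 in WT, and 3 of 6 KO libraries were above all WT libraries. The difference was 1.85 ± 0.54 (95% interval 0.76 to 2.93, edgeR adjusted p = 0.0936), and 1.05 (edgeR adjusted p = 0.451) without block A. ACAN, at 1.27 to 2.61 CPM in KO and 2.16 to 7.85 CPM in WT, differed by -1.19 ± 0.64 (edgeR adjusted p = 0.51). VCAN differed by -0.02 ± 0.28, with an interval from -0.59 to 0.56.

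Markers of the stage of differentiation moved at this day. The summed mesoderm level was 151 to 238 CPM in KO and 54.6 to 130 CPM in WT, with 3 of 6 markers called higher (MESP1, MESP2 and MIXL1), and the summed cardiomyocyte level 41.5 to 86.7 CPM against 132 to 449 CPM, with 4 of 8 called lower, among them MYL4 and TNNT2. Their part in the HAPLN1 and CD44 values was not tested.

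At day 4.5 ACAN was the 1 member of 6 that was called, lower in KO, when 3.74% of all genes were called. ACAN had 1.02, 4.89 and 0 CPM in cl4_R1, cl4_R2 and cl4_R3, and 1.42, 1.08 and 1.16 CPM in cl14, cl46 and cl51 (1.59 ± 1.69, n = 6). WT libraries held 2.88, 3.44, 5.01, 9.24, 11.2 and 16.3 CPM (8.01 ± 5.22, n = 6), so 5 of 6 KO libraries lay below all WT libraries and cl4_R2 lay among them. The log2 fold change was -2.31 ± 0.63 (95% interval -3.59 to -1.02, edgeR adjusted p = 0.0316). Counts behind it were 0 to 8 in KO and 8 to 25 in WT. No KO library of any day held more than 8 ACAN counts, under the filter's minimum count of 10. ACAN thus passed the filter only through WT libraries, where it was high, so this call is not independent of the filter. The call was kept under 12 of 19 alternatives. It was lost without a filter on low counts (edgeR adjusted p = 0.0601) and when any one of cl4_R1, cl4_R3, cl14_R1, cl46_R1, cl51_R1 or WT_R2 was left out (edgeR adjusted p up to 0.0845 over all alternatives), and was kept without block A (-2.60, edgeR adjusted p = 0.00965).

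Of the cartilage markers, 1 of 4 tested was called at day 4.5: COL2A1, the collagen of cartilage matrix, was lower in KO (-1.96 ± 0.20, edgeR adjusted p = 1.37e-08). The median log2 fold change of the 4 was -0.19, and COMP was at 3 counts or fewer in every library. The summed level of the 6 listed markers was 192 to 260 CPM in KO and 400 to 794 CPM in WT. Of 8 cardiomyocyte markers MYL7, ACTN2 and MYH7 were lower (4706 to 15325 CPM in sum against 12673 to 27869), and epicardial and fibroblast markers summed to 342 to 489 CPM in KO and 127 to 288 CPM in WT, PDGFRA being higher (1.08 ± 0.22, edgeR adjusted p = 0.0019). The part of these in the ACAN difference was not tested.

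VCAN, the abundant proteoglycan, had 2665, 2799, 2951, 3120, 2920 and 2941 CPM in KO at day 4.5 (2899 ± 154, n = 6) and 918, 1236, 2169, 2898, 2016 and 2174 CPM in WT (1902 ± 716, n = 6). Thus 4 of 6 KO libraries lay above all WT libraries, and the lowest WT values were those of block A. The difference was 0.54 ± 0.28 (95% interval -0.03 to 1.12, edgeR adjusted p = 0.293), and 0.28 without block A (edgeR adjusted p = 0.136). HAPLN1 was 0.36 ± 0.30 higher (edgeR adjusted p = 0.523), with overlapping groups. CD44 was at the floor in both groups and has no fold.

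At day 7.5 none of the 6 members was called, against 0.348% of genes, with 2 members at an unadjusted p under 0.05 and 0 called by DESeq2. HAPLN1 had 140, 169 and 234 CPM in KO and 30.8, 57.9 and 105 CPM in WT, a difference of 1.46 ± 0.44 (95% interval 0.57 to 2.35, edgeR adjusted p = 0.247). The lowest WT value was that of block A, and without block A the difference was 1.12 (edgeR adjusted p = 0.493). With single libraries left out the edgeR adjusted p ran from 0.101 to 0.933. HAPLN3 had 6.51, 6.91 and 3.98 CPM in KO against 1.03, 2.09 and 3.23 CPM in WT (1.43 ± 0.68, edgeR adjusted p = 0.88). Neither overlapped between groups, as was the case for 16.8% of all genes at this day. VCAN differed by -0.14 ± 0.40, its 3 KO libraries lying between 3400 and 3600 CPM and its WT libraries between 2766 and 4743 CPM. Library names and blocks were not matched here, since 1 WT library came from block A and 2 KO libraries from block C.

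HAPLN1 was thus 1.01 lower in KO at day 2.5 and 1.46 higher at day 7.5 on the log2 scale, and whether the genotype difference changed with the day was tested over all 4 days. HAPLN1 was the 1 member of 6 to pass that test (edgeR adjusted p = 0.0449), as did 0.674% of all genes. The call was near the threshold. It was past it in 22 of 47 alternatives, with an edgeR adjusted p between 0.0159 and 0.125 when single libraries were left out, 0.0561 with no filter on low counts and 0.2 without block A. The other 5 members did not pass, with an edgeR adjusted p of 0.487 for CD44 and 0.889 to 1 for VCAN, HAPLN3, ACAN and NCAN. Without block A, VCAN passed (edgeR adjusted p = 0.0496).

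The median log2 fold change of the members between KO and WT was -0.10 and -0.14 at days 1.5 and 2.5 (6 members), and 0.35 and -0.14 at days 4.5 and 7.5 (the 5 with a fold). Over all genes it was 0.00, 0.01, -0.03 and -0.00. Few other genes of the pathway lists differed by genotype. At day 2.5, CEMIP2 (-1.07 ± 0.22, edgeR adjusted p = 0.0071, 1 of 5 in its list) and TNC (-1.38 ± 0.35, edgeR adjusted p = 0.0412, 1 of 8) were lower in KO. At day 4.5, UGP2 (-0.57 ± 0.16, edgeR adjusted p = 0.0413) and MSN, a linker of CD44 to the cytoskeleton (-0.65 ± 0.16, edgeR adjusted p = 0.0164), were lower. None of the tested genes of the 5 lists was called at days 1.5 and 7.5.

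**Figure D3:**
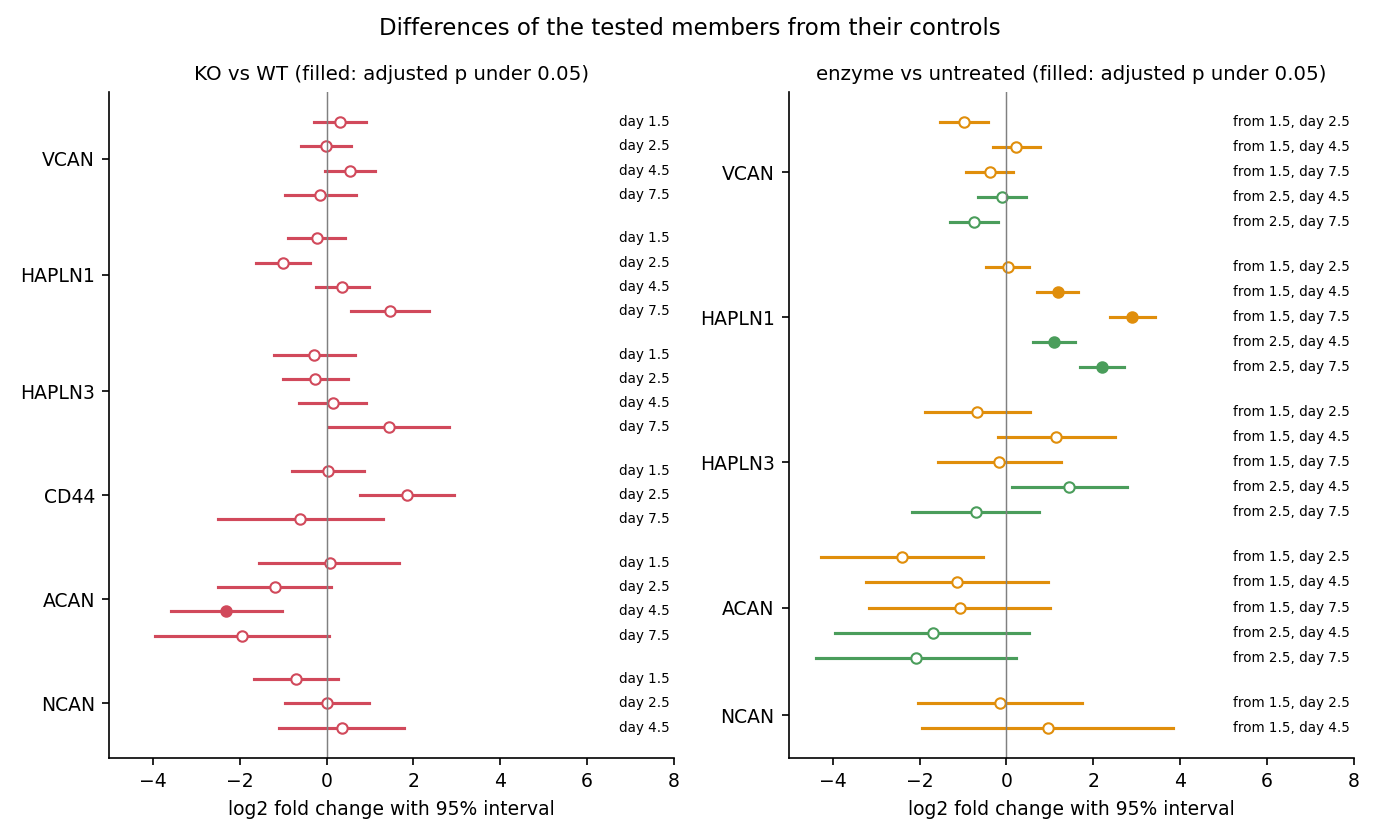
Log2 fold changes of the tested members (points, with 95% intervals as bars) in the KO and hyaluronidase comparisons; filled points have an edgeR adjusted p under 0.05. HAPLN1 is filled and above 0 in the 4 hyaluronidase comparisons of days 4.5 and 7.5 (1.09 to 2.90), and ACAN is filled and below 0 in KO at day 4.5 (-2.31).

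Treatment with hyaluronidase gave the clearest difference among the members, in HAPLN1. Cardioids given hyaluronidase from day 1.5 had 1113, 1008 and 1619 CPM of HAPLN1 at day 4.5 in the lines TNNI1, WT and TNNT2, where untreated cardioids had 427, 504 and 636 CPM. All treated libraries were above all untreated ones, and 21.6% of all genes did not overlap at this day. The difference was 1.18 ± 0.23 on the log2 scale (95% interval 0.70 to 1.66, edgeR adjusted p = 0.00382). HAPLN1 was the 1 member called of 5, among 3.48% of all genes.

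At day 7.5 HAPLN1 had 766, 558 and 474 CPM in HAse1.5 and 75.0, 70.2 and 76.4 CPM in untreated cardioids. The difference was 2.90 ± 0.25 (95% interval 2.38 to 3.43, edgeR adjusted p = 2.72e-07), with log2 ratios of 3.35, 2.99 and 2.63 within the 3 lines. The groups did not overlap, as for 17.7% of genes. Again 1 of 5 members was called, against 3.33% of genes. HAPLN1 fell in untreated cardioids over these days, from a mean of 522 to 73.9 CPM, and went from a mean of 1247 to 599 CPM in HAse1.5.

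Later treatment, from day 2.5, gave the same direction. HAse2.5 cardioids had 1008, 927 and 1474 CPM of HAPLN1 at day 4.5 (1.09 ± 0.23, edgeR adjusted p = 0.0414) and 246, 396 and 426 CPM at day 7.5 (2.20 ± 0.25, 95% interval 1.69 to 2.71, edgeR adjusted p = 4.85e-05). Neither day overlapped with untreated cardioids, as for 16.5% and 16.9% of all genes. HAPLN1 was the 1 member of 5 called on each day, while 0.220% and 0.659% of all genes were called. The day 4.5 call was lost when any of the 6 libraries was left out (edgeR adjusted p = 0.0599 to 0.318) and kept with the line as a block (1.08, edgeR adjusted p = 0.0112). Both treatments were set against the same untreated libraries, so these are not independent comparisons.

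Cardiomyocyte markers were lower where HAPLN1 was higher, in part of these comparisons. Their summed level at day 4.5 was 9415 to 20179 CPM in untreated, 814 to 4660 in HAse1.5 and 6401 to 10979 in HAse2.5 cardioids, and 6 of 8 markers were called lower after HAse1.5. At day 7.5 the sums were 28155 to 35869, 8973 to 14478 and 15719 to 26604 CPM, with 3 of 8 markers lower after HAse1.5 and 1, MYH7, after HAse2.5. Neural markers summed to 18.1 to 64.0 CPM in HAse1.5 and 13.9 to 15.0 CPM in untreated cardioids at day 4.5. At day 7.5 the sums were 13.7 to 25.8 and 3.57 to 7.42 CPM, and DCX, the 1 neural marker of 7 that was tested, was higher in HAse1.5 (2.40 ± 0.66, edgeR adjusted p = 0.0442). The part of these markers in the HAPLN1 difference was not tested.

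At day 2.5, when HAse1.5 cardioids had had the enzyme for a day, HAPLN1 showed no difference past the threshold: 152, 145 and 212 CPM against 176, 130 and 181 CPM (0.03 ± 0.24, 95% interval -0.46 to 0.51). VCAN was the member set apart at this day, with 327, 421 and 394 CPM in HAse1.5 and 555, 650 and 994 CPM in untreated cardioids, without overlap, as for 13.5% of all genes. The difference of -0.98 ± 0.27 (95% interval -1.54 to -0.43) did not pass in the edgeR test (adjusted p = 0.0802), but passed in DESeq2 (-0.97, adjusted p = 0.034) and, in edgeR, without a filter on low counts (adjusted p = 8.19e-06). The fold in that unfiltered fit was the same (-0.98), so its smaller p is not a larger difference, and why the p was smaller was not tested. No member was called of 5, against 1.15% of genes, with 2 at an unadjusted p under 0.05 and 1 called by DESeq2. Mesoderm markers summed to 236 to 493 CPM in HAse1.5 and 72.4 to 130 CPM in untreated cardioids, and cardiomyocyte markers to 65.2 to 129 CPM and 266 to 599 CPM; their part in the VCAN value was not tested.

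VCAN did not differ past the threshold at later days. At day 4.5 it had 1813, 3989 and 2732 CPM in HAse1.5 and 2451, 2225 and 1910 CPM in HAse2.5, with untreated libraries at 2109 to 2448 CPM. At day 7.5 HAse2.5 cardioids had 3441, 2471 and 2569 CPM against 5759, 4633 and 3340 CPM, lower in 3 of 3 lines with overlapping groups (-0.74 ± 0.26, 95% interval -1.29 to -0.20, edgeR adjusted p = 0.223, and 0.00346 at the same fold without a filter on low counts). HAse1.5 cardioids had 4697, 2947 and 3723 CPM (-0.38 ± 0.26, edgeR adjusted p = 0.501).

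Line by line, ACAN was below its untreated value in 3 of 3 lines after HAse1.5 at days 2.5 and 4.5 and after HAse2.5 at day 7.5. After HAse1.5 at day 7.5 and after HAse2.5 at day 4.5 it was lower in 2 lines and higher in 1. No difference passed. At day 2.5 it had 0.686, 6.39 and 0.625 CPM in HAse1.5 and 3.57, 16.1 and 19.6 CPM in untreated cardioids (-2.41 ± 0.91, 95% interval -4.28 to -0.53, edgeR adjusted p = 0.305). At day 7.5 it had 1.38, 0 and 1.31 CPM in HAse2.5 and 3.57, 4.47 and 3.71 CPM in untreated cardioids, without overlap, as for 16.9% of all genes (-2.09 ± 1.11, edgeR adjusted p = 0.418). The treated libraries there held 0 to 2 ACAN counts each. ACAN never exceeded 35 counts in a library, and the intervals are wide. No hyaluronidase library held more than 8 ACAN counts, under the filter's minimum count of 10. In this arm ACAN thus passed the filter only through untreated libraries, where it was high. These differences are therefore not independent of the filter.

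HAPLN3 at day 4.5 was 25.4, 10.4 and 7.57 CPM in HAse1.5 and 18.0, 14.8 and 19.2 CPM in HAse2.5, against 8.19, 4.44 and 5.56 CPM in untreated cardioids. It was higher in 3 of 3 lines both times and did not pass (1.15 ± 0.65 and 1.45 ± 0.65, edgeR adjusted p = 0.481 and 0.631). Its levels overlapped with untreated after HAse1.5 but not after HAse2.5, where 16.5% of all genes did not overlap. CD44, which has no test in this arm, was at 0 to 7.91 CPM over its 24 libraries. NCAN had 0 reads in all 6 hyaluronidase libraries of day 7.5. BCAN had its highest value, 5.03 CPM from 7 counts, in HAse1.5 at day 7.5 in the line WT, and STAB1 its highest, 3.71 CPM from 5 counts, in untreated cardioids at day 7.5 in the line TNNT2.

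The time of treatment was compared directly. Between HAse1.5 and HAse2.5 no member was called at day 4.5, against 0.361% of genes (0 at an unadjusted p under 0.05, 0 by DESeq2), and none at day 7.5, against 0.00784% (1 and 0). HAPLN1 differed at day 4.5 by 0.09 ± 0.23 (95% interval -0.39 to 0.56). At day 7.5 it was higher in HAse1.5 than in HAse2.5 in 3 of 3 lines without overlap, as for 12.0% of genes (0.70 ± 0.23, 95% interval 0.22 to 1.18, edgeR adjusted p = 0.546).

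The KO difference and the HAse1.5 difference, each against its own controls, were then compared in a fit over both arms. No member passed at day 2.5, 4.5 or 7.5, where 0.0925%, 0.271% and 0.0925% of genes did; edgeR gave 2, 0 and 1 of 6 members at an unadjusted p under 0.05, and DESeq2 called 0 each time. For HAPLN1 the KO difference minus the HAse1.5 difference at days 2.5, 4.5 and 7.5 was -1.06 ± 0.47, -0.79 ± 0.46 and -1.44 ± 0.55 (edgeR adjusted p = 0.894, 0.826 and 0.523). The 95% interval at day 7.5 ran from -2.54 to -0.34. For VCAN it was 0.94 ± 0.45 at day 2.5 (95% interval 0.04 to 1.84, edgeR adjusted p = 0.954). KO and hyaluronidase cardioids came from separate sets of libraries, so the arm and the kind of perturbation cannot be told apart here.

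Since a link protein acts together with its proteoglycan, HAPLN1 reads were also set against VCAN reads of the same library, a ratio that needs no scaling to depth. WT cardioids had 26.8 ± 15.4 HAPLN1 reads per 100 VCAN reads at day 1.5, 43.3 ± 29.4 at day 2.5, 18.5 ± 7.68 at day 4.5 and 1.63 ± 0.558 at day 7.5 (SD, n = 5, 6, 6 and 3). Untreated cardioids had 23.3 ± 7.30, 22.8 ± 4.87 and 1.70 ± 0.519 at days 2.5, 4.5 and 7.5. Both sets of controls thus ended day 7.5 within 1.11 to 2.29 reads per 100, below all their earlier libraries. Levels of single genes did not overlap between days 4.5 and 7.5 for 8.89% of genes in WT and 27.7% in untreated cardioids.

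At day 2.5 the KO ratio was 11.3 to 32.9 (19.7 ± 8.45) and the WT ratio 15.2 to 99.5 (43.3 ± 29.4), overlapping and lower on average in KO. HAse1.5 cardioids at that day held 34.3 to 53.9 and untreated cardioids 18.2 to 31.6, without overlap, as for the levels of 13.5% of single genes. KO cardioids held 4.08 to 6.89 HAPLN1 reads per 100 VCAN reads at day 7.5, HAse1.5 cardioids 12.7 to 18.9 and HAse2.5 cardioids 7.16 to 16.6. None of these day 7.5 ranges overlapped with the controls of the same arm. Levels of single genes did not overlap there for 16.8% of genes in KO, 17.7% in HAse1.5 and 16.9% in HAse2.5. No such share was taken over ratios of other gene pairs. At day 4.5 KO (15.6 ± 4.89, n = 6) and WT (18.5 ± 7.68, n = 6) differed in their means by less than either SD, while HAse1.5 (48.6 ± 20.3) and HAse2.5 (53.3 ± 20.7) had higher means than untreated cardioids (22.8 ± 4.87). HAse1.5 overlapped with untreated cardioids there, with 25.3 in the line WT against 17.5 to 27.0. HAse2.5 did not (41.1 to 77.2), as for the levels of 16.5% of single genes. The ratio was not tested, as the differences of its 2 genes were.

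**Figure D4:**
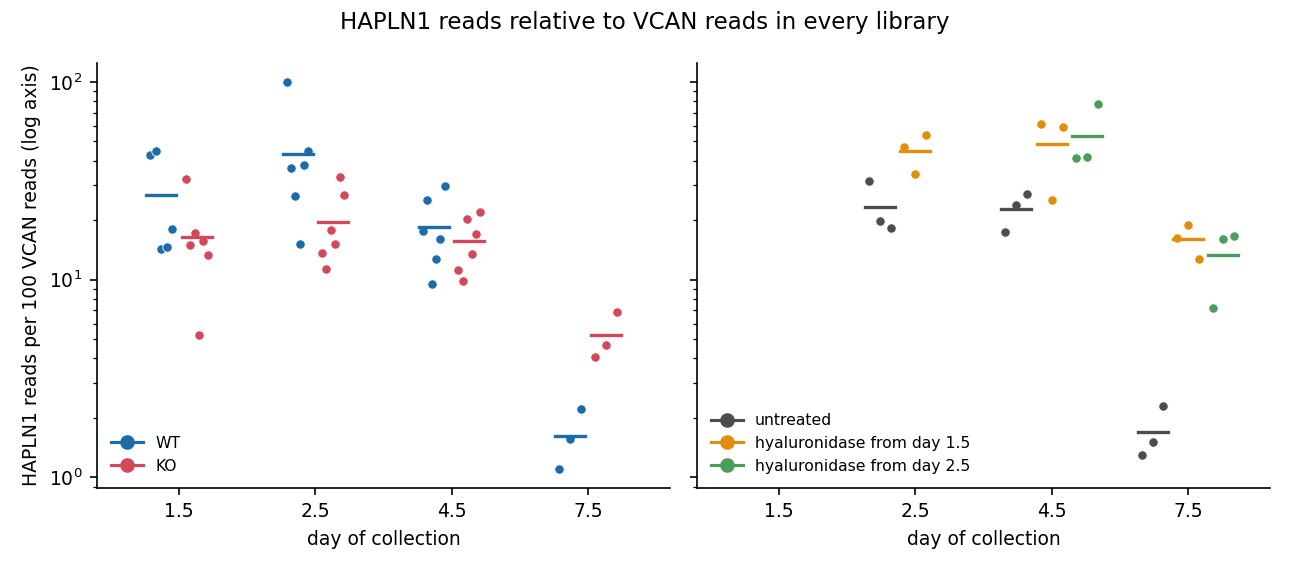
HAPLN1 reads per 100 VCAN reads in every library on a log scale, by day and group; points are libraries and lines are group means. At day 7.5 the controls lie at 1.11 to 2.29, KO at 4.08 to 6.89, HAse2.5 at 7.16 to 16.6 and HAse1.5 at 12.7 to 18.9.

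Over the 16 groups VCAN mean levels ran from 4577 ± 1210 CPM in untreated cardioids of day 7.5 to 332 ± 184 CPM in WT of day 1.5. Their order followed the day with 2 exceptions: HAse2.5 of day 7.5 (2827 ± 534) ranked below KO (2899 ± 154) and HAse1.5 (2845 ± 1093) of day 4.5, and HAse1.5 of day 2.5 (381 ± 48.6) ranked below KO of day 1.5 (409 ± 136). Of its 15 steps between neighbours in that order, 2 were larger than the larger SD of the pair: from KO at day 7.5 to KO at day 4.5, and from WT at day 4.5 to untreated at day 2.5. HAPLN1 was ordered otherwise, with HAse1.5 (1247 ± 327 CPM) and HAse2.5 (1137 ± 296) of day 4.5 first and HAse1.5 of day 7.5 (599 ± 150) next, and with WT of day 7.5 (64.7 ± 37.8) and KO of day 1.5 (57.9 ± 18.7) last. Its 2 steps beyond the larger SD were from HAse2.5 at day 4.5 to HAse1.5 at day 7.5 and from untreated to KO at day 2.5. For CD44 the 1 such step was from WT at day 1.5 to KO at day 2.5, and for HAPLN3, ACAN and NCAN neighbours never differed beyond their spread.

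Across the 16 group means of log2 CPM, VCAN and HAPLN1 were only loosely related (r = 0.44), while VCAN and NCAN ran opposite (r = -0.94), and the neighbours ACAN and HAPLN3 had r = 0.32. NCAN was at the floor in 7 of the 16 groups, CD44 in 6 and ACAN in 3. In such groups log2 CPM is set largely by the prior count and the depth, which limits the values of these members. These correlations describe 16 groups that share lines, days and scaling, and they have no test. Among 12527 genes compared, those most like VCAN were PLD1 (r = 0.991), ZMYND11 (0.987) and RBMS3 (0.984), and those most like HAPLN1 were CKAP4 (0.950), VAPA (0.940) and ATP8B4 (0.933). For HAPLN3 they were KDM7A (0.948), EPB41 (0.925) and PTGIS (0.904), and for NCAN COCH (0.972), FGFR4 (0.971) and RPL38 (0.969). CD44 was most like GMDS (0.889), MIXL1, a transcription factor of the primitive streak (0.884), and SNHG16 (0.884). ACAN was most like SPSB4 (0.838), GDAP1L1 (0.831) and LLGL2 (0.804).

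Over the members with a fold, the median log2 difference from untreated cardioids after HAse1.5 was -0.67, 0.95 and -0.27 at days 2.5, 4.5 and 7.5 (5, 5 and 4 members), and after HAse2.5 it was 0.50 and -0.72 at days 4.5 and 7.5 (4 members each). Over all genes these medians lay between -0.01 and 0.02. Of the pathway lists, the enzyme arm gave calls mostly after the early treatment. At day 2.5 ADAMTS9 was higher in HAse1.5 (1.23 ± 0.27, edgeR adjusted p = 0.0151), 1 of 7 proteases tested. At day 4.5 the aggrecanase ADAMTS15 (-2.23 ± 0.36, edgeR adjusted p = 0.000593) and EZR, which encodes ezrin (-1.45 ± 0.23, edgeR adjusted p = 4e-04), were lower, and 2 of 15 chondroitin sulfate genes were higher: XYLT1, which starts the chains (2.17 ± 0.45, edgeR adjusted p = 0.00601), and UST, which sulfates them (2.18 ± 0.61, edgeR adjusted p = 0.0443). XYLT1 was also higher at day 7.5 (2.24 ± 0.53, edgeR adjusted p = 0.016), 1 of 4 called among the 15, with CHST11 and CHPF2 higher and DSE lower. EZR and UGP2 were lower at that day (-1.17 ± 0.22 and -1.13 ± 0.23, edgeR adjusted p = 0.00285 and 0.00648). After HAse2.5 none of the lists' tested genes was called at day 4.5, and ADAMTS9 was higher at day 7.5 (1.13 ± 0.26, edgeR adjusted p = 0.039).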

How the data were processed

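The deposited table holds raw read counts per Ensembl gene, whole numbers made by the authors, for 65 QuantSeq 3′ libraries. Per the submitters' processing notes, featureCounts of Subread 1.6.2 and the build hg38 were used. The aligner, annotation release and strand setting are not given in the sources used here. The table's 4 columns of no listed sample were not used. Gene positions come from GENCODE 29. Samples were grouped by their titles. The members, lists and comparisons were chosen with earlier results of these data known.

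Each arm was fitted with edgeR 4.0.16 (quasi-likelihood F-test, robust; R 4.3.3, limma 3.58.1) on genes passing filterByExpr with a minimum count of 10, with TMM scaling and Benjamini-Hochberg adjustment over all genes tested at a threshold of 0.05. Each fit used all groups of its arm, so that they share the estimate of spread. No fold is given where both groups have 3 counts or fewer in every library. Intervals are 95%. Log2 CPM used a prior count of 2. The scripts were tested on simulated data. Alternatives were DESeq2 1.42.0, RLE size factors, no filter, fits of the compared libraries alone, replicate blocks and leaving out each library. Fits without block A or on block C alone were added after the data were seen. Reads are not counted as molecules, so floors cover counting error only.

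By rule, the text names all 9 members, HAS2, at most 3 called genes per list and comparison (the smallest adjusted p) and the 3 genes most like each member over 16 groups. Further called genes, in lists with 5 or fewer, were named after their values were seen. In the enzyme arm a replicate number is the same line in every group, and 15 of 21 pairs of the same line and day had a correlation of deviations above 0.1 (lowest -0.0987). WT libraries of the same name on neighbouring days did so in 14 of 14 pairs.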

Additional observations from a re-analysis of the deposited data

Results flagged for a closer look

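Of 34 sets of values, each 1 member in 1 group of 5 or 6 libraries, 4 held a library whose gap to the others was above Dixon's 95% critical value, where chance gives about 1 in 20. VCAN in KO at day 1.5 was 139 CPM in cl4_R1 (450 counts) and 428 to 512 CPM in the other 5. HAPLN3 in KO at day 2.5 was 38.5 CPM in cl4_R1 (32 counts) and 7.02 to 17.2 CPM in the others. CD44 in WT at day 1.5 was 15.1 CPM in WT_R1 (54 counts) and 27.1 to 27.9 CPM in the others. These 3 libraries belong to block A. ACAN in KO at day 4.5 was 4.89 CPM in cl4_R2 (8 counts) and 0 to 1.42 CPM in the others.

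The genotype difference in HAPLN1 changed with the day by the test over 4 days (edgeR adjusted p = 0.0449), with the exceptions given beside that result.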

How the results depend on the processing

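Of 331 alternative counts of called members 273 stayed within 1.5 times the count reported, 47 were lower and 11 higher. Of 1730 alternative member differences 1577 kept direction and side of the threshold, 61 lost the call, 31 gained it and 61 turned direction. Where a value changed, the cause was not tested.

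The R numbers of the genotype arm are numbers only: 9 of 32 pairs of the same number and day had a correlation above 0.1 (lowest -0.421, highest 0.798). With the R number as a replicate block, 2 members were called at day 2.5 (HAPLN1 -0.86, CD44 2.27) and 2 at day 4.5 (VCAN 1.01, ACAN -1.90), and directions turned for VCAN at day 2.5 (0.45) and day 7.5 (0.05), NCAN at day 2.5 (-0.04) and HAPLN3 at day 4.5 (-0.07). The pairing by line or library name changed no call beyond those given above.

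At day 1.5 KO minus WT turned to 0.08 without block A and 0.20 in block C alone for HAPLN3, to -0.04 with the block as a term and -0.01 without block A for CD44, and to -0.16 with the block as a term and -0.11 in block C alone for ACAN. At day 2.5 it turned to 0.07 for HAPLN3 (block C alone) and -0.05 for NCAN (no filter). DESeq2 called 1 member in KO at day 2.5 and 1 in HAse1.5 at day 2.5. The block as a term gave 1 member in KO at day 2.5 and 4 in WT from day 2.5 to 4.5. With no filter, KO at day 4.5 had 0 members called, HAse1.5 at day 2.5 had 1, HAse2.5 at day 7.5 had 2, and the genotype difference over days 0. Fits of the compared libraries alone gave 0 in KO at day 4.5, where ACAN was not tested, and 1 in WT from day 2.5 to 4.5 and from day 4.5 to 7.5.

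When each library was left out in turn, the number of members called ran from 0 to 1 in KO at days 2.5 and 4.5, in HAse1.5 at day 2.5 and in the genotype difference over days, from 2 to 4 in WT from day 2.5 to 4.5, from 1 to 2 in WT and untreated from day 4.5 to 7.5, and was 0 in each of the fits for HAse2.5 at day 4.5. Log2 differences that turned direction in these fits ran, for KO against WT, from -0.56 to 0.62 (ACAN) and -0.09 to 0.11 (CD44) at day 1.5, -0.16 to 0.07 (VCAN) and -0.17 to 0.35 (NCAN) at day 2.5, -0.02 to 0.34 (HAPLN3) at day 4.5 and -0.30 to 0.06 (VCAN) at day 7.5. For HAse1.5 against untreated they ran from -0.17 to 0.13 (HAPLN1) and -1.69 to 0.32 (NCAN) at day 2.5, -0.11 to 0.47 (VCAN) at day 4.5 and -0.75 to 0.63 (HAPLN3) at day 7.5, and for HAse2.5 from -1.31 to 0.07 (HAPLN3) at day 7.5. For HAse1.5 against HAse2.5 they ran from -0.01 to 0.57 (VCAN), -0.14 to 0.31 (HAPLN1), -1.01 to 0.02 (HAPLN3) and -0.05 to 0.97 (NCAN) at day 4.5, and -0.25 to 1.58 (ACAN) at day 7.5. In untreated cardioids from day 4.5 to 7.5 they ran from -0.19 to 1.01 (ACAN) and -0.39 to 0.99 (HAPLN3). For the KO minus the HAse1.5 difference they ran from -0.31 to 1.70 (NCAN) at day 2.5, and -1.43 to 0.40 (ACAN) and -1.58 to 0.41 (CD44) at day 7.5.

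Low counts limit HAPLN3, CD44, ACAN and NCAN, and BCAN, STAB1 and LYVE1 have no reported test.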
